A study of Mus musculus with 17 samples.

Results

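RNA of 10 genes of serine synthesis, mitochondrial one-carbon metabolism and amino acid supply was followed in mouse cerebella, taken whole at postnatal day 3. They were Phgdh, Psat1, Psph, Shmt2, Mthfd2, Aldh1l2, Aldh18a1, Asns, Slc7a11 and Slc7a5. These genes were listed by name, with earlier results of these data known, and all 10 of them passed the filter on low counts in every fit. The files held 31438 genes. All mice were labelled C57BL/6 and carried Math1-Cre, a recombinase driven by a promoter of granule neuron progenitors, which divide after birth and become the cerebellar granule neurons. In the background without Bax and Bak, 5 libraries came from mice with loxP-flanked Atr, loxP-flanked Bax and no Bak (Bak--/-), and 4 control libraries came from mice of that genotype but with Atr not floxed. In the background without p53, 5 libraries carried loxP-flanked Atr and p53, and 3 control libraries carried loxP-flanked p53. Atr encodes a kinase that responds to stalled replication forks, Bax and Bak carry out mitochondrial apoptosis, and p53 is a transcription factor of the DNA damage response. Bak was absent from every cell of its background, whereas Atr, Bax and p53 were floxed, so cells without Cre kept them.

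Serine is made from a glycolytic intermediate by the enzymes of Phgdh, Psat1 and Psph in turn. In mitochondria, the enzyme of Shmt2 splits serine into glycine and a one-carbon unit carried on folate, which those of Mthfd2 and Aldh1l2 oxidise, and one-carbon units feed the synthesis of purines and thymidylate in dividing cells. Aldh18a1 encodes the enzyme that begins proline synthesis from glutamate, Asns makes asparagine, Slc7a11 exchanges cystine for glutamate and Slc7a5 carries large neutral amino acids. Several of these genes are known targets of Atf4, a transcription factor made when translation initiation is slowed by stress, and in brain Phgdh is known to be abundant in glia, Bergmann glia included.

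The 16 libraries used held 42987953 to 100659645 estimated counts, so 1 count was worth at most 0.0233 CPM (counts scaled to library size). Replicate 3 of the Atr-deleted group without p53 held 13601 counts in all and 0 to 5 of any of the 10 genes, and was left out, which leaves 4 libraries in that group. Its title repeats the sample number of replicate 1 with a suffix, and whether both come from the same animal is not given. Atr RNA stood at 35.8 to 43.5 CPM in Atr-deleted libraries lacking Bax and Bak against 38.4 to 48.0 CPM in their controls, and at 33.7 to 40.2 CPM in Atr-deleted libraries without p53 against 36.3 to 38.3 CPM in theirs. Whole-gene sums did not separate the Atr genotypes (edgeR adjusted p = 0.280 and 0.977), and RNA that lacks the floxed part of a gene may still be counted. Bak1 was at 0.237 to 0.607 CPM in the libraries without Bak and at 32.6 to 41.6 CPM in those without p53, as the labels have it. Bax was at 24.7 to 36.7 CPM in the former and at 54.3 to 73.7 CPM in the latter. Trp53 was at 62.2 to 76.8 CPM in the former and at 29.3 to 45.5 CPM in the latter. RNA of these floxed genes thus remained in whole tissue, and the names of the backgrounds stand for genotypes. Replicate 2 of the Atr-deleted group without p53 stood apart: 9.02% of its counts were mitochondrial, against 2.13% to 3.37% in the other libraries of that background. Mitochondrial counts were 3.53% to 4.35% in Atr-deleted libraries lacking Bax and Bak and 1.81% to 2.55% in their controls. In RNA of whole tissue, fewer cells of a type and less RNA per cell cannot be told apart.

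Per kilobase of transcript, Phgdh had the highest mean of the 10 genes in each group and Aldh1l2 the lowest. In Atr-deleted libraries without p53, the mean of Aldh1l2 (7.86) lay within the spread of Slc7a11 (8.22 ± 5.77, same unit as below, SD, n = 4). Phgdh reached 176 ± 9.43 RPKM (counts per kilobase of transcript, scaled to library size; SD, n = 5) in Atr-deleted libraries lacking Bax and Bak and 134 ± 8.30 RPKM (n = 4) in their controls, followed by Slc7a5 and Psat1. Slc7a5 stood at 95.02 ± 8.12 RPKM in these Atr-deleted libraries and 80.0 ± 6.00 RPKM in their controls, and Psat1 at 60.7 ± 1.24 RPKM in Atr-deleted libraries and 69.0 ± 1.14 RPKM in controls. The next 2 in order, Shmt2 at 34.0 ± 1.62 RPKM and Asns at 32.2 ± 1.18 RPKM, lay within their spread of each other in the Atr-deleted libraries. Aldh1l2 stood at 8.63 ± 0.320 RPKM in Atr-deleted libraries and 6.43 ± 0.436 RPKM in controls. All other levels below are CPM on a scale shared by the 16 libraries, which compares libraries and not genes.

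**Figure D1:**
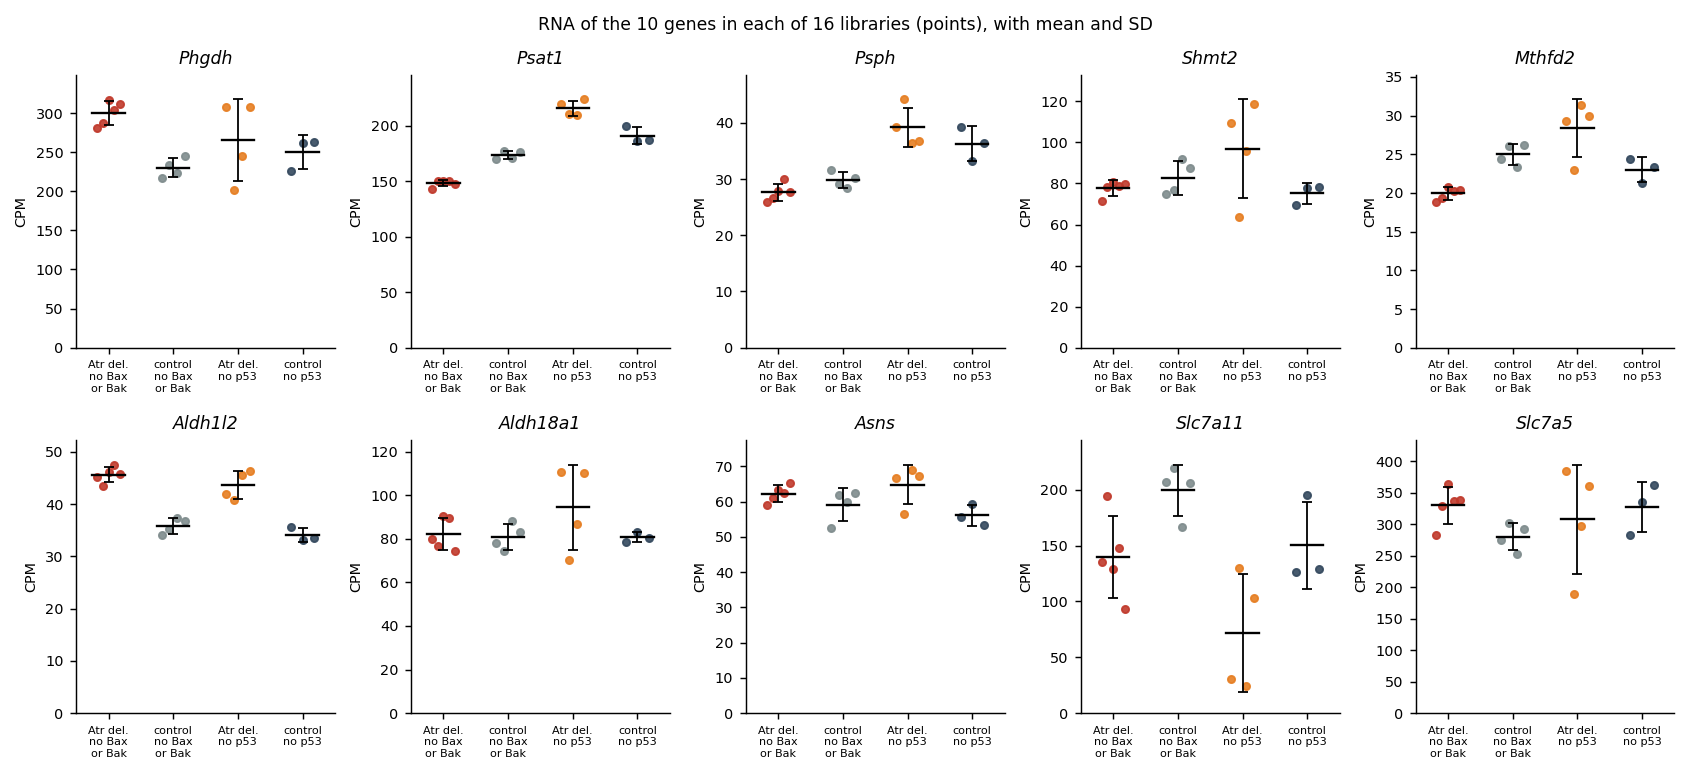
Level in CPM (linear axis from 0) of each of the 10 genes, with 1 point per library and the mean with its SD as a bar, for the 5 Atr-deleted libraries lacking Bax and Bak, their 4 controls, the 4 Atr-deleted libraries without p53 and their 3 controls. Phgdh and Aldh1l2 lie higher, and Psat1 and Mthfd2 lower, in all Atr-deleted libraries lacking Bax and Bak than in all of their controls.

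The first comparison asked how RNA of these genes differed with loxP-flanked Atr when Bax and Bak were missing. Phgdh, Aldh1l2 and Slc7a5 were higher and Psat1 and Mthfd2 lower in Atr-deleted libraries, by 1.19- to 1.32-fold upwards and to 0.864- and 0.807-fold downwards. Of the 3 serine synthesis genes 1 rose, 1 fell and 1 was not called, and the same held for the 3 mitochondrial one-carbon genes. Such a mix lies near the shares of all genes called, which were 22.5% higher and 22% lower. In all, 5 of 10 genes passed edgeR's quasi-likelihood test (Benjamini-Hochberg adjusted p under 0.05), as did 44.5% of the 17405 genes tested, so the share among the 10 was close to the share among all genes. Higher calls were 3 of 10 (22.5% of all genes) and lower calls 2 of 10 (22% of all genes). The median log2 fold change was -0.02 over the 10 genes and 0.04 over all genes. For 4 of the 10 the groups did not overlap, as for 38.3% of all genes.

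Phgdh, the entry enzyme of serine synthesis (chromosome 3, 98313170 to 98339990, GRCm38, minus strand), stood at 280, 288, 316, 304 and 312 CPM in the 5 Atr-deleted libraries, against 218, 234, 223 and 245 CPM in the 4 controls. Every Atr-deleted library lay above every control. The rise was 1.32-fold (95% interval 1.22 to 1.43; log2 fold change 0.40 ± 0.05 SE; edgeR adjusted p = 0.00014). Pseudogenes share 52.8% of the 31-base words of Phgdh, and the one that shares most, Gm7901, held 0.0482% as many counts as Phgdh. With their counts added the log2 fold change remained 0.40. Of 12 markers of astrocytes and Bergmann glia, 10 were higher and 1 lower in Atr-deleted libraries. Their sum was 5748 to 7227 CPM in Atr-deleted libraries and 4423 to 4796 CPM in controls. Markers of other cell types were higher too: 5 of 7 of the oligodendrocyte lineage, with 1 lower, 5 of 6 of microglia, 6 of 6 of Purkinje cells and 5 of 5 of interneurons. The median log2 fold change was 0.57 for the astrocyte and Bergmann glia list, 1.06 for the oligodendrocyte lineage, 0.53 for microglia, 0.52 for Purkinje cells and 0.75 for interneurons. Against control replicates 3 and 4 alone, 2 of the 6 Purkinje cell markers were called. Summed levels of interneuron markers were 513 to 645 CPM in Atr-deleted libraries and 318 to 398 CPM in controls, those of Purkinje cells 2447 to 3537 CPM in Atr-deleted libraries and 1989 to 2355 CPM in controls. Oligodendrocyte lineage markers summed to 1098 to 2314 CPM in Atr-deleted libraries and 683 to 1148 CPM in controls, and those of microglia to 103 to 130 CPM in Atr-deleted libraries and 67.0 to 94.4 CPM in controls. The part of any of these cell types in the rises of Phgdh, Aldh1l2 and Slc7a5 was not tested.

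Psat1, which makes phosphoserine (chromosome 19, 15904678 to 15947337, minus strand), went the other way. Its level was 143, 150, 150, 150 and 148 CPM in Atr-deleted libraries, against 170, 177, 171 and 176 CPM in controls, again without overlap. It fell to 0.864-fold (95% interval 0.819 to 0.911; log2 fold change -0.21 ± 0.04 SE; edgeR adjusted p = 0.00061). Psph, the phosphatase of the last step, ranged from 26.0 to 30.1 CPM in Atr-deleted libraries and from 28.4 to 31.6 CPM in controls. The groups overlapped, and its log2 fold change of -0.09 (95% interval -0.22 to 0.03) was not called (edgeR adjusted p = 0.198).

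The promoters of Phgdh and Psat1, neighbours in the pathway that moved in opposite directions, are given below from the RefSeq table of GRCm38.p6 for the minus strand, 5′ to 3′, from 250 bases before to 50 after the listed start (chr3:98339920-98340219 and chr19:15925010-15925309). Of the 10 genes, 8 were in that table, all but Aldh1l2 and Slc7a5. Capitals mark matches on either strand to 3 motifs: the C/EBP-ATF response element bound by Atf4 (TGATGNAA), the core of the antioxidant response element bound by Nrf2 (TGACNNNGC) and the E-box bound by Myc (CACGTG). No match overlapped another. These letters occur in 3.97%, 12.4% and 7.15% of the 32851 promoters of the table, and a match is a description of sequence only.
Phgdh: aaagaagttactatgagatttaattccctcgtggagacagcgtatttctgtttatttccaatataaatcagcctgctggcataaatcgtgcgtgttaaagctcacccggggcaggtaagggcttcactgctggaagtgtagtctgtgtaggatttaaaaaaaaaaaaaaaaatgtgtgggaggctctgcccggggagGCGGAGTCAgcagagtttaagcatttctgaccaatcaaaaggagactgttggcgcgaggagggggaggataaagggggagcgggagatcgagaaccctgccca
Psat1: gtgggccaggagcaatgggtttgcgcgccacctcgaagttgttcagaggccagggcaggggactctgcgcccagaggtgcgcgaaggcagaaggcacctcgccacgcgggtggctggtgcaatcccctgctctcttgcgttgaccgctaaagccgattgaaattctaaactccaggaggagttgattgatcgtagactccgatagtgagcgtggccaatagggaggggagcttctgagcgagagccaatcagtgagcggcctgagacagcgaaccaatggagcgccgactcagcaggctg
Phgdh held 1 antioxidant core, on the strand opposite to the gene, with its first base 53 bases before the listed start. That start lies 21 bases from the start of the main transcript of Phgdh. Psat1 held none of these letters in its window. Among the promoters not printed, Psph held an antioxidant core just after the start listed in the table, which lies 196 bases from that of its main transcript, Aldh18a1 held an E-box, and Shmt2 held none.

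Of the mitochondrial one-carbon genes, Mthfd2 (chromosome 6, 83305691 to 83325908, minus strand) was at 18.8, 19.4, 20.8, 20.3 and 20.4 CPM in Atr-deleted libraries, against 24.3, 26.1, 23.4 and 26.2 CPM in controls. All 5 Atr-deleted libraries lay below all controls. It fell to 0.807-fold (95% interval 0.740 to 0.879; log2 fold change -0.31 ± 0.06 SE; edgeR adjusted p = 0.0011). Its promoter (chr6:83317555-83317854, minus strand, GRCm38.p6) is shown beside those of Asns and Slc7a11, since all 3 are commonly listed as Atf4 targets, and had no match.
Mthfd2: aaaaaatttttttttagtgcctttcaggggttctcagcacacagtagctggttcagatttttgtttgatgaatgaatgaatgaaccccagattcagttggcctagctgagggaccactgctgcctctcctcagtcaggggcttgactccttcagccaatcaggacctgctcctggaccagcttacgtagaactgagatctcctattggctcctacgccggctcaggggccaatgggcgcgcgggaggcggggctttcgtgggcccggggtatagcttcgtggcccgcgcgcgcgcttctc
Aldh1l2, which oxidises formyl-tetrahydrofolate in mitochondria (chromosome 10, 83487450 to 83534140, minus strand), was at 45.1, 43.5, 46.1, 47.5 and 45.7 CPM in Atr-deleted libraries and at 34.0, 35.3, 37.3 and 36.7 CPM in controls. The groups did not overlap. The rise was 1.29-fold (95% interval 1.202 to 1.38; log2 fold change 0.36 ± 0.05 SE; edgeR adjusted p = 9.1e-05). D10Wsu102e, on the other strand, shares 1056 of the 7503 exonic bases of Aldh1l2; whether counting used the strand is not given in the sources used here, so the division of reads there is uncertain. Shmt2 (chromosome 10, 127517123 to 127522444, minus strand) ranged from 71.4 to 80.7 CPM in Atr-deleted libraries and from 75.1 to 91.9 CPM in controls. Its log2 fold change of -0.07 (95% interval -0.22 to 0.07) was not called (edgeR adjusted p = 0.368).

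Markers of dividing cells fell in the same libraries. All 10 of them passed the test downwards, and their sum was 809 to 996 CPM in Atr-deleted libraries and 1552 to 1738 CPM in controls. Mki67, a protein of dividing cells, averaged 204 ± 20.5 CPM (SD, n = 5) in Atr-deleted libraries and 343 ± 43.0 CPM (n = 4) in controls. Of 11 granule progenitor markers 10 fell and 1, Gli1, rose, though not without control replicate 2 (log2 fold change 0.22; edgeR adjusted p = 0.068). Of 8 granule neuron markers 4 were lower and 0 higher. Their sum was 1813 to 2267 CPM in Atr-deleted libraries and 2384 to 3249 CPM in controls. The part of all these markers in the fall of Psat1 and Mthfd2 was not tested.

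**Figure D2:**
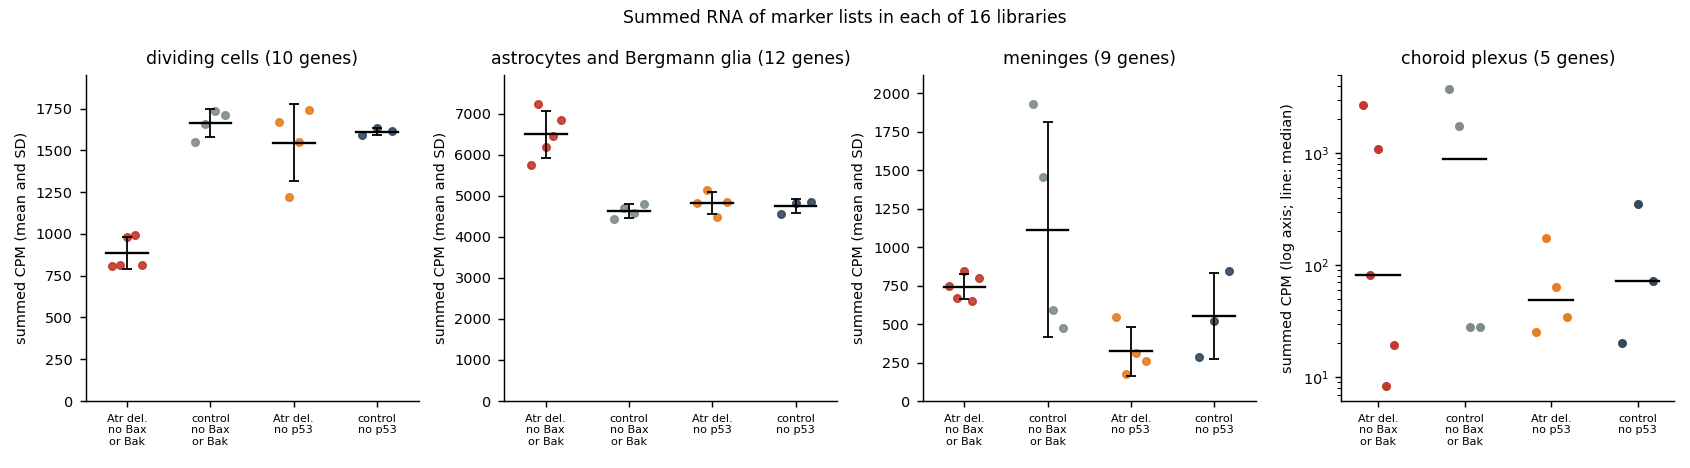
Summed CPM of 4 marker lists, with 1 point per library in the 4 groups, on linear axes from 0 with mean and SD, except choroid plexus, which has a log axis and lines at the medians. Dividing-cell markers are lowest, and astrocyte and Bergmann glia markers highest, in the Atr-deleted libraries lacking Bax and Bak, at 809 to 996 and 5748 to 7227 CPM.

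Among the amino acid supply genes, Slc7a5 (chromosome 8, 121881150 to 121907694, minus strand) stood at 283, 329, 364, 337 and 338 CPM in Atr-deleted libraries, against 274, 301, 253 and 292 CPM in controls. The lowest Atr-deleted library lay within the range of the controls. The rise was 1.19-fold (95% interval 1.06 to 1.34; edgeR adjusted p = 0.018). It was not called without control replicate 1 (adjusted p = 0.070), nor with the controls of either number series alone, where the adjusted p was 0.083 and 0.058, nor with all 16 libraries in 1 fit (adjusted p = 0.246). Slc3a2, which encodes its partner chain, was higher by a log2 fold change of 0.23. Slc7a11 (chromosome 3, 49892526 to 50443614, minus strand) was at 135, 195, 130, 148 and 93.2 CPM in Atr-deleted libraries and at 207, 219, 167 and 207 CPM in controls. Its log2 fold change of -0.49 (95% interval -0.92 to -0.07) missed the threshold (edgeR adjusted p = 0.060). Without Atr-deleted replicate 2, the only library of its group within the range of the controls, it was -0.67 (adjusted p = 0.0058). Asns (chromosome 6, 7675169 to 7693254, minus strand), at 59.2 to 65.4 CPM in Atr-deleted libraries and 52.5 to 62.5 CPM in controls, and Aldh18a1 (chromosome 19, 40550257 to 40588463, minus strand), at 74.4 to 90.6 CPM in Atr-deleted libraries and 74.7 to 88.3 CPM in controls, were not called. Their log2 fold changes were 0.09 (95% interval -0.03 to 0.21; edgeR adjusted p = 0.219) and 0.04 (95% interval -0.12 to 0.19; edgeR adjusted p = 0.699).

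The promoters of Asns (chr6:7693160-7693459) and Slc7a11 (chr3:50443564-50443863), both from the minus strand of GRCm38.p6, were those of the 8 that held the C/EBP-ATF response element.
Asns: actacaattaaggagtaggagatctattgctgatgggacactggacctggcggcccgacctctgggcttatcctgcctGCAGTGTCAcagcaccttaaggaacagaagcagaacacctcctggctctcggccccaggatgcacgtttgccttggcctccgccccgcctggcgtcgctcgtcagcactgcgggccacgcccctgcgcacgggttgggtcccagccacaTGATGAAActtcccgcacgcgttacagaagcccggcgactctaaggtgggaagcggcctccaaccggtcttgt
Slc7a11: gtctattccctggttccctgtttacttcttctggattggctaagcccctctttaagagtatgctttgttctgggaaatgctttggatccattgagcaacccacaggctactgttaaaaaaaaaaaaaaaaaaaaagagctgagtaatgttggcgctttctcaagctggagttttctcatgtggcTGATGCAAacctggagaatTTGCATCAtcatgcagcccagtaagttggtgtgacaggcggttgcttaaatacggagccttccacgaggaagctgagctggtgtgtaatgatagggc
In Asns the element began 23 bases before the listed start on the gene's own strand, and an antioxidant core began 172 bases before it on the opposite strand. The listed start of Asns lies 45 bases from that of its main transcript, so places counted from the latter differ. In Slc7a11 it occurred at 66 bases before the start on the gene's strand and at 47 bases before it on the opposite strand. Neither gene was called in the main test of either comparison of Atr-deleted with control libraries. Under some alternatives, DESeq2 (adjusted p = 0.028) and limma-voom (adjusted p = 0.029) among them, Slc7a11 was called lower without Bax and Bak.

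Meningeal markers varied between libraries although the labels' protocol has the meninges removed. None of the 9 was called in the main test, against 1 without control replicate 3 3 without control replicate 4, 8 against replicates 1 and 2 alone and 5 against replicates 3 and 4 alone, and their sum ran from 652 to 843 CPM in Atr-deleted libraries lacking Bax and Bak and from 474 to 1930 CPM in their controls. Within the controls it was 1930 and 1457 CPM in replicates 1 and 2 and 592 and 474 CPM in replicates 3 and 4. Choroid plexus markers summed to 8.31 to 2705 CPM in Atr-deleted libraries and 27.9 to 3703 CPM in controls. No marker of the 11 cell type lists was at 0 in any of the 16 libraries. The part of these cells in the values of Slc7a11 was not tested.

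Sample numbers in the titles begin with 1836 for all Atr-deleted libraries lacking Bax and Bak, and with 100019 for control replicates 1 and 2 and 1842 for replicates 3 and 4, so number and genotype cannot be told apart here. Against either pair of controls alone, Phgdh, Psat1, Mthfd2 and Aldh1l2 were called in the same direction: the log2 fold changes were 0.42 and 0.33, -0.21 and -0.26, -0.32 and -0.35, and 0.41 and 0.27, with edgeR adjusted p of at most 0.0045. Shmt2 differed between the pairs, at 0.05 against the 100019 controls and -0.24 (adjusted p = 0.0048) against those of 1842.

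The second comparison was of Atr-deleted with control libraries without p53. The fitted log2 fold change was above 0 for 8 of 10 genes and for 52.5% of all genes, and none of the 10 was called. Only 8 of 17348 genes (0.0461%) were called by edgeR in this background, all of them higher. At an unadjusted p under 0.05 edgeR had 4 of the 10 genes, Psat1, Mthfd2, Aldh1l2 and Asns, and 1142 of all genes. DESeq2 called 1 of the 10, Aldh1l2, and limma-voom called 0. The median log2 fold change was 0.20 over the 10 genes and 0.01 over all genes.

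Aldh1l2 was at 41.9, 40.8, 45.5 and 46.4 CPM in the Atr-deleted libraries without p53, against 35.7, 33.1 and 33.5 CPM in controls. The groups did not overlap, which held for 8.21% of all genes. Its log2 fold change was 0.37 ± 0.09 SE (95% interval 0.17 to 0.56) with an edgeR adjusted p of 0.372, and with all 16 libraries in 1 fit it was 0.36 with an adjusted p of 0.021. Psat1, the other gene without overlap, was at 219, 210, 209 and 224 CPM in Atr-deleted libraries and at 200, 186 and 187 CPM in controls. Its log2 fold change was 0.18 (95% interval 0.01 to 0.36; edgeR adjusted p = 0.729). Mthfd2 was at 29.3, 22.9, 31.3 and 29.9 CPM in Atr-deleted libraries, against 24.5, 21.3 and 23.3 CPM in controls. Replicate 2 lay within the controls and the other 3 Atr-deleted libraries above them, with a log2 fold change of 0.31 (95% interval 0.04 to 0.59; edgeR adjusted p = 0.705).

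Replicate 2, the library with 9.02% mitochondrial counts, was also the lowest of its group for Phgdh, Shmt2, Mthfd2, Aldh1l2, Aldh18a1, Asns and Slc7a5. Shmt2 stood at 110, 63.7, 95.7 and 119 CPM in Atr-deleted libraries, against 69.5, 77.6 and 78.3 CPM in controls. Replicate 2 was below all controls and the other 3 above them, and the log2 fold change was 0.38 (95% interval -0.04 to 0.80; edgeR adjusted p = 0.785), or 0.54 (adjusted p = 0.196) without that library. Phgdh was at 307, 202, 245 and 308 CPM in Atr-deleted libraries, against 226, 262 and 263 CPM in controls (log2 fold change 0.10, or 0.21 without replicate 2). Slc7a5 was at 384, 190, 297 and 360 CPM in Atr-deleted libraries, against 284, 336 and 362 CPM in controls (log2 fold change -0.08, or 0.10 without replicate 2). For both genes the groups overlapped. In Atr-deleted libraries Aldh18a1 ranged from 70.2 to 111 CPM, Asns from 56.5 to 68.9 CPM and Psph from 36.5 to 44.2 CPM. In controls Aldh18a1 ranged from 78.7 to 83.4 CPM, Asns from 53.5 to 59.3 CPM and Psph from 33.2 to 39.3 CPM. None of the 10 genes was called without replicate 2.

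Slc7a11 varied most. It stood at 30.4, 130, 23.8 and 103 CPM in Atr-deleted libraries without p53, against 127, 196 and 129 CPM in controls. Replicates 1 and 4 lay far below the other libraries of this background, replicate 5 lay below the controls and replicate 2 among them. The log2 fold change was -1.055 with a 95% interval of -2.68 to 0.57 (edgeR adjusted p = 0.843). Meningeal markers summed to 545, 173, 309 and 262 CPM in the same 4 libraries in turn and to 287, 522 and 843 CPM in the controls. Their part in the result was not tested.

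In this background the sample numbers begin with 1843 for all Atr-deleted libraries and control replicate 1, and with 1845 for control replicates 2 and 3. Against control replicate 1 alone the log2 fold changes were 0.29 for Aldh1l2, 0.11 for Psat1, 0.22 for Mthfd2 and 0.48 for Shmt2, and none of the 10 genes was called. The spread then rests on the 4 Atr-deleted libraries, and the lone control is assumed to vary as they do. Dividing-cell markers summed to 1220 to 1741 CPM in Atr-deleted libraries and 1591 to 1631 CPM in controls, with the lowest sum in replicate 2, and astrocyte and Bergmann glia markers to 4469 to 5136 CPM in Atr-deleted libraries and 4557 to 4854 CPM in controls. Markers of granule progenitors summed to 1851 to 2482 CPM in Atr-deleted libraries and 2542 to 2764 CPM in controls. Those of granule neurons summed to 1676 to 2138 CPM and 2189 to 2241 CPM, in the same order. Those of the oligodendrocyte lineage summed to 427 to 494 CPM and 511 to 724 CPM. These lists were lower without overlap, and the sums of the other lists overlapped. No gene of any marker list was called, and the part of these markers in the values of the 10 genes was not tested.

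**Figure D3:**
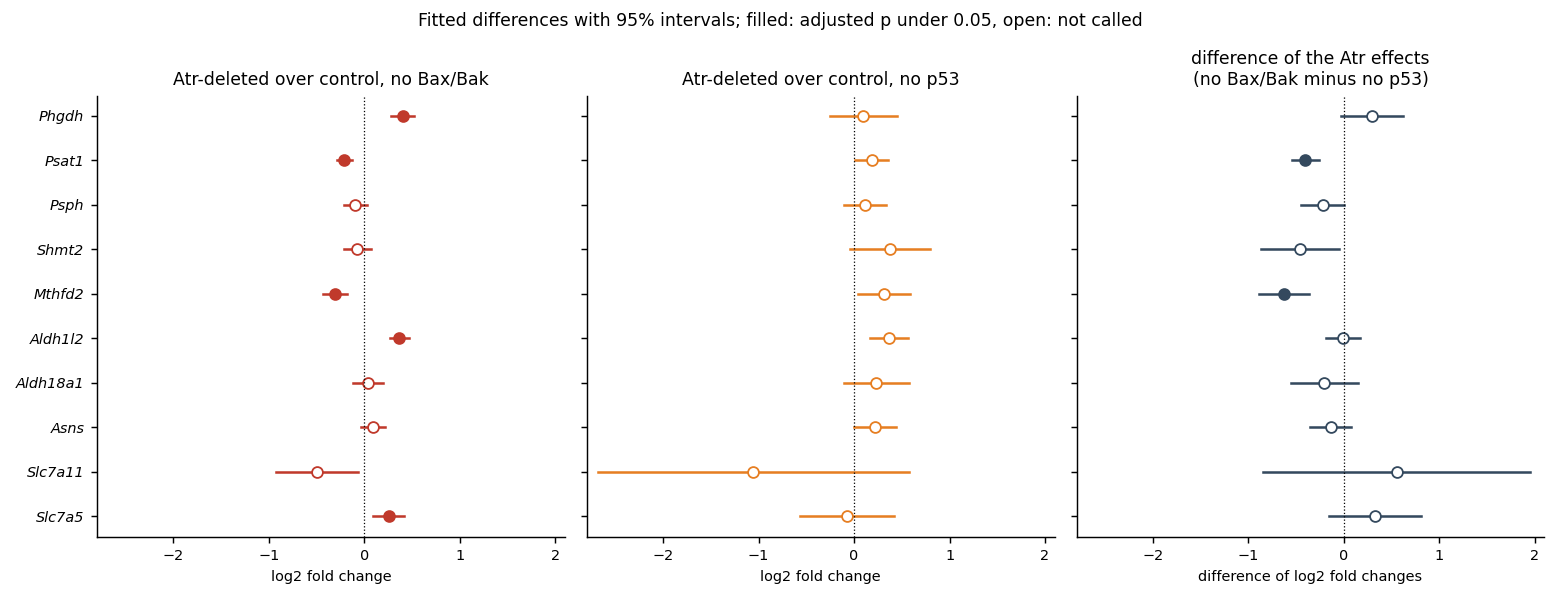
Fitted log2 fold change of Atr-deleted over control libraries without Bax and Bak (left) and without p53 (middle), and the difference of these log2 fold changes (right), for the 10 genes, with 95% intervals. Filled points passed the adjusted threshold: 5 genes on the left, none in the middle and 2, Psat1 and Mthfd2, on the right.

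The third comparison asked whether the difference between Atr-deleted and control libraries was itself different in the 2 backgrounds. It used 1 fit of all 16 libraries, whereas the first and second comparisons each had a fit of their own background. The difference was called for Psat1 and Mthfd2. For Psat1 the log2 fold change was lower by 0.40 without Bax and Bak than without p53, a difference of -0.40 ± 0.07 SE (95% interval -0.54 to -0.26; edgeR adjusted p = 0.00089). For Mthfd2 the difference was -0.63 ± 0.12 SE (95% interval -0.89 to -0.37; edgeR adjusted p = 0.0029). These 2 of 10 compare with 16.2% of the 18166 genes tested. Under the alternatives run, with each library left out in turn included, the difference of Psat1 ran from -0.46 to -0.38 and that of Mthfd2 from -0.72 to -0.58, and both were called in each.

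For the other 8 genes no difference between the backgrounds was called. The interval was narrowest for Aldh1l2, at -0.19 to 0.17 around a difference of -0.01, so a difference of log2 fold changes beyond 0.19 in size lay outside it. For Phgdh it was -0.03 to 0.62 around 0.30 (edgeR adjusted p = 0.208), so the rise of Phgdh without Bax and Bak was not shown to be absent without p53. For Slc7a11 it was -0.84 to 1.95. The difference of Shmt2 was -0.46 (95% interval -0.87 to -0.05; edgeR adjusted p = 0.122), and without Atr-deleted replicate 2 of the p53 background it was -0.61 and called (edgeR adjusted p = 0.0016).

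Levels were then compared between backgrounds, where the deposited table, the number series and the background cannot be told apart. With Atr deleted, libraries without Bax and Bak had less Psat1, Psph and Mthfd2 than those without p53. Psat1 averaged 148 ± 3.09 CPM (SD, n = 5) without Bax and Bak and 216 ± 7.02 CPM (n = 4) without p53, a log2 fold change of -0.54 (edgeR adjusted p = 1.2e-07). Psph averaged 27.6 ± 1.56 CPM without Bax and Bak and 39.2 ± 3.54 CPM without p53 (log2 fold change -0.50; edgeR adjusted p = 2.3e-05). Mthfd2 averaged 19.9 ± 0.798 CPM without Bax and Bak and 28.4 ± 3.72 CPM without p53 (log2 fold change -0.51; edgeR adjusted p = 7.1e-05). Groups did not overlap for these 3, nor for 39.7% of all genes. They were 3 of 10 called, against 47.2% of all genes. Without replicate 2 of the Atr-deleted group without p53, 6 of 10 were called. The share of all genes called in that fit is not given here. Added were Shmt2 (log2 fold change -0.47) and Aldh18a1 (-0.32), lower without Bax and Bak, and Slc7a11 (1.42), higher there.

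Between the controls, 1 of 10 genes was called, against 18% of all genes. Psph averaged 29.8 ± 1.35 CPM (SD, n = 4) in controls without Bax and Bak and 36.3 ± 3.08 CPM (n = 3) in those without p53 (log2 fold change -0.28; edgeR adjusted p = 0.023), and this call was lost without control replicate 2 or 3 of the first background or 1 or 3 of the second, where its adjusted p was 0.057, 0.072, 0.104 and 0.068. Psat1 averaged 174 ± 3.52 CPM in controls without Bax and Bak and 191 ± 7.63 CPM in those without p53 and was not called (log2 fold change -0.14; edgeR adjusted p = 0.067). Groups did not overlap for Psat1 and Psph, nor for 31.5% of all genes. By mean level, the order of Psat1 over the 4 groups was Atr-deleted without Bax and Bak, controls without Bax and Bak, controls without p53 and Atr-deleted without p53, from low to high. Of the steps in this order, neither that between the controls nor that between the groups without p53 was called.

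Transcripts were compared where their mean share of the gene's counts over the 16 libraries was 5% to 95%. Of the 10 genes, Psat1 and Aldh18a1 had such transcripts, giving 8 tests in both backgrounds. Psat1-204, annotated as a retained intron, held 10.95%, 9.87%, 10.7%, 8.68% and 7.56% of Psat1 counts in Atr-deleted libraries lacking Bax and Bak, against 5.13%, 4.78%, 7.55% and 2.40% in controls. Every Atr-deleted library was above every control, the closest by 0.01 percentage points. The mean share was 9.56% ± 1.43 (SD, n = 5) in Atr-deleted libraries and 4.96% ± 2.11 (n = 4) in controls, and the exact permutation test (two-sided) gave p = 0.0079, the smallest this design can give, or 0.063 after adjustment over the 8 tests. The main coding transcript, Psat1-201, held 88.3% ± 1.70 in Atr-deleted libraries and 92.5% ± 1.56 in controls (two-sided exact permutation p = 0.016, adjusted 0.063). Without p53, Psat1-204 held 8.14% ± 0.906 (n = 4) in Atr-deleted libraries and 5.02% ± 2.61 (n = 3) in controls (two-sided exact permutation p = 0.086, adjusted 0.229). None of the 8 shares was called. Mthfd2-201, the main transcript of Mthfd2, lay outside the rule on mean shares and was not tested. It held 92.7%, 96.3%, 85.3%, 92.4% and 95.7% of Mthfd2 counts in Atr-deleted libraries lacking Bax and Bak. In their controls it held 96.7%, 98.1%, 96.7% and 99.0%, and without p53 the groups overlapped.

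**Figure D4:**
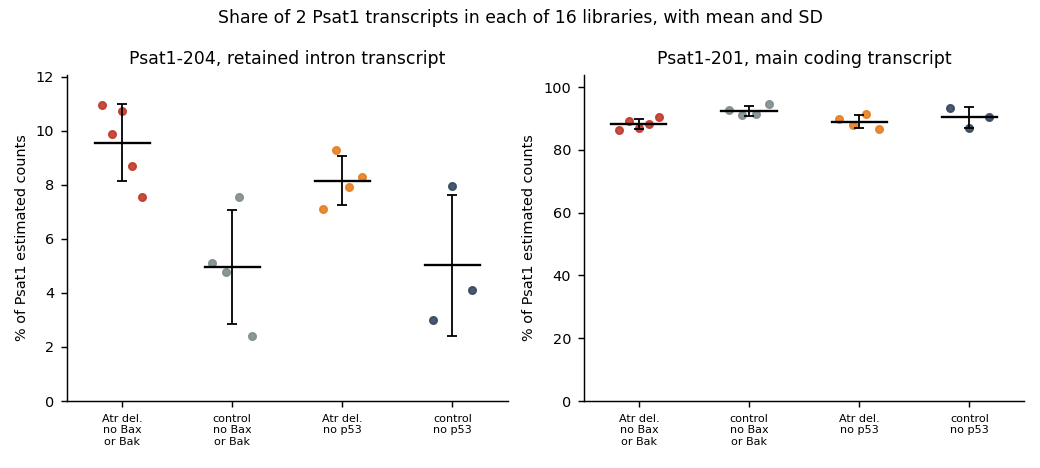
Percent of the estimated counts of Psat1 assigned to the retained-intron transcript Psat1-204 (left) and to the main coding transcript Psat1-201 (right), with 1 point per library and the mean with its SD, in the 4 groups. Without Bax and Bak the share of Psat1-204 is 7.56% to 10.95% in Atr-deleted libraries and 2.40% to 7.55% in controls.

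The surrounding pathways were read from 8 lists of 127 genes that leave out the 10 genes above. Without Bax and Bak, the list of folate and one-carbon genes had 3 higher and 8 lower of 19 in Atr-deleted libraries, where 22.5% of all genes tested were higher and 22% lower. The lower ones included Shmt1, the cytosolic counterpart of Shmt2, at 13.6 ± 1.56 CPM (SD, n = 5) in Atr-deleted libraries and 25.1 ± 1.57 CPM (n = 4) in controls (log2 fold change -0.87), and Ahcy, which clears S-adenosylhomocysteine (-0.38). Aldh1l1, the cytosolic counterpart of Aldh1l2 and a marker of astrocytes, was higher, at 363 ± 24.2 CPM in Atr-deleted libraries and 251 ± 9.63 CPM in controls (log2 fold change 0.55). Sfxn3 (0.26) and Fpgs (0.23), the enzyme that adds glutamates to folate, were higher as well. Genes of glycine cleavage and serine use had 2 higher, Amt of the glycine cleavage system (0.53) and Cbs, which joins serine to homocysteine (0.27), and 3 lower, Gcat (-0.56), Dld (-0.15) and Gcsh (-0.12), of 13. Those 5 of 13 (38.5%) lie near the 44.5% of all genes called. The median log2 fold change was -0.11 and -0.07 in these 2 lists and 0.04 over all genes. In 1 fit of all 16 libraries 2 of these 13 were called, and Cbs, Dld and Gcsh were not. Nor was Cbs called against the controls of 1842, or Sfxn3 against those of 100019. Fpgs was not called without control replicate 2 or 4 (edgeR adjusted p = 0.125 and 0.064), nor Gcsh without Atr-deleted replicate 1, 3 or 5 or control replicate 4 (edgeR adjusted p = 0.069 to 0.078).

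Atf4 pathway genes had 13 higher and 0 lower of 20, with a median log2 fold change of 0.34, against 22.5% higher, 22% lower and a median of 0.04 over all genes. The 3 of smallest p were Sesn2, a stress-induced inhibitor of mTORC1 signalling (log2 fold change 1.59), the secreted factor Gdf15 (3.23) and the transcription factor Atf3 (1.31). Membership of this list does not show which factor raised a gene, and the part of Atf4 or p53 in these rises was not tested. Sesn2 averaged 75.1 ± 4.37 CPM in Atr-deleted libraries and 25.3 ± 2.02 CPM in controls. Gdf15 averaged 1.98 ± 0.309 CPM in Atr-deleted libraries and 0.211 ± 0.116 CPM in controls, and Atf3 7.85 ± 1.04 CPM in Atr-deleted libraries and 3.22 ± 0.368 CPM in controls. Amino acid transporters had 13 higher and 5 lower of 23 (median 0.24). The glycine transporter Slc6a9 (0.76), the lysosomal Slc36a1 (0.43) and Slc43a2 (0.53) were among the higher, and Slc7a6 (-0.37), Slc38a2 (-0.34) and Slc43a1 (-0.67) among the lower. Genes of proline, glutamate and aspartate had 6 higher and 1 lower of 15 (median 0.18), a share called of 46.7% that is close to the 44.5% of all genes. Aldh4a1 (0.54) and Glud1 (0.29), which act in proline and glutamate breakdown, and the aminotransferase Got1 (0.36) were higher, and Pycr1, the last enzyme of mitochondrial proline synthesis, was lower (-0.26).

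The cytosolic tRNA synthetases had 1 higher, Cars (0.18), and 6 lower, Rars (-0.33), Kars (-0.25) and Tars (-0.19) among them, of 20 (median -0.06), so 35% were called, below the 44.5% of all genes. In 1 fit of 16 libraries 2 of these 20 were called, Cars and Tars not among them, and Cars was not called without control replicate 2 (edgeR adjusted p = 0.061). The glutathione and Nrf2 list had 2 higher, Nfe2l2, which encodes Nrf2 (0.25), and Srxn1 (0.20), and 2 lower, Txnrd1 (-0.31) and Gpx4 (-0.25), of 12, or 33.3% called, and in 1 fit of 16 libraries 2 were called, without Gpx4 and Nfe2l2. Nfe2l2 was not called without Atr-deleted replicate 2, 3 or 4 or control replicate 2, 3 or 4 (edgeR adjusted p = 0.051 to 0.104), and Srxn1 not without Atr-deleted replicate 2 or control replicate 1 or 2 (edgeR adjusted p = 0.056 to 0.109). Of 5 Myc genes, Myc was higher (0.24) and Mycn (-0.45), Max (-0.24) and Mxd3 (-1.08) were lower. All named log2 fold changes in these 8 lists passed edgeR's adjusted threshold, with an adjusted p of at most 0.037. Of the 36 genes that the naming rule took as called from these lists, 26 were called under each of 20 alternatives and 10 were lost under at least 1, 5 of them without a single library, and none changed sign.

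Without p53, 1 of the 127 genes was called, in the Atf4 list. Without control replicate 3, with no filter on low counts or with the shallow library kept, 2 of the 20 genes of that list were called, and 8 with DESeq2 and 6 in 1 fit of 16 libraries. Fgf21, a secreted factor of the Atf4 list, stood at 3.29 ± 0.567 CPM (SD, n = 4) in Atr-deleted libraries and 0.0290 ± 0.0286 CPM (n = 3) in controls (edgeR adjusted p = 0.0023). In these controls 1 count was worth 0.0138 to 0.0147 CPM, so the level is one of very few counts and no fold is given. Without Bax and Bak it stood at 0.689 ± 0.117 CPM in Atr-deleted libraries and 0.0632 ± 0.0446 CPM in controls. The Atf4 list had a median log2 fold change of 0.26 without p53, against 0.01 over all genes. At an unadjusted p under 0.05 edgeR had 9 of its 20 genes and 1142 of the 17348 genes tested. The difference of the Atr effects was called for 5 of the 20 genes, against 16.2% of all genes. Its median was -0.07 in the list and 0.02 over all genes. The difference was positive for Sesn2 (1.12), Cebpb (0.97) and Ddit4 (0.39) and negative for Atf5 (-0.58). That of Fgf21 was negative too, and its size is not given for the same reason. The part of p53 or Atf4 in these differences was not tested.

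Folate and one-carbon genes had 1 higher and 3 lower differences of the Atr effects of 19, with Shmt1 (-0.67) and Mthfd2l (-0.59) among the negative ones and Aldh1l1 (0.49) the positive one. The amino acid transporters had 7 higher and 3 lower of 23, among them Slc6a9 (0.60), Slc43a2 (0.58) and Slc36a1 (0.51) higher and Slc1a5 (-0.76), Slc7a6 (-0.50) and Slc38a2 (-0.30) lower. Dividing-cell markers had 9 lower of 10 and astrocyte and Bergmann glia markers 7 higher of 12 in the same test, and their part in these differences was not tested. The share of all genes called was 8.08% higher and 8.09% lower.

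**Figure D5:**
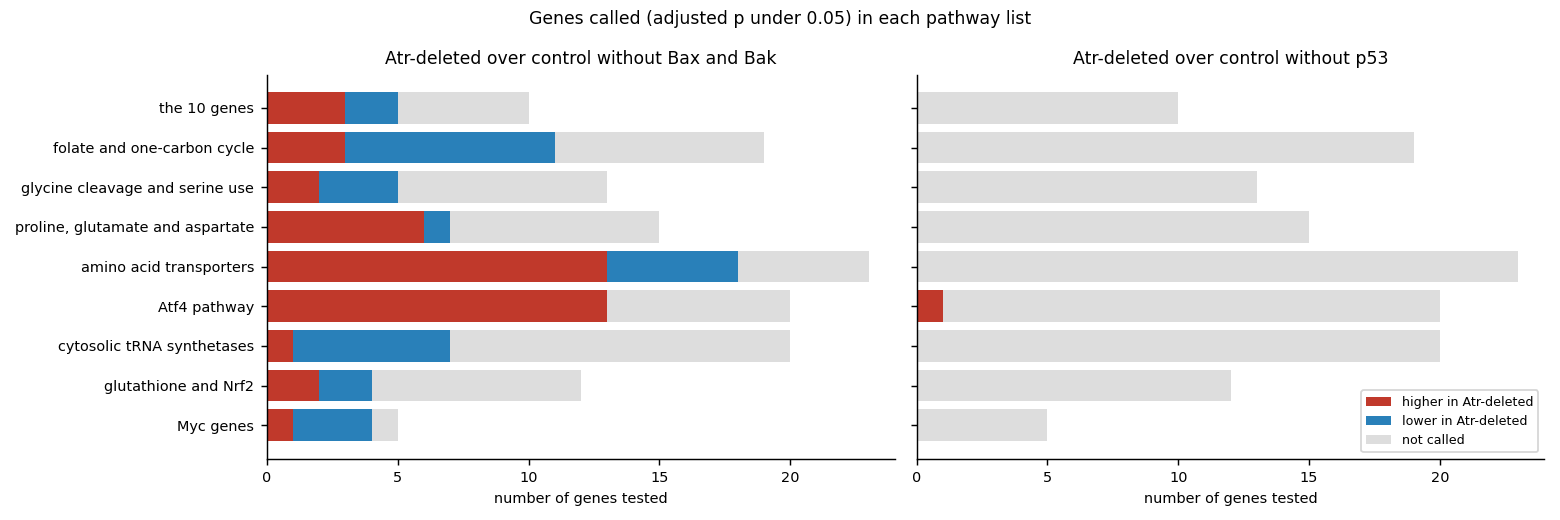
Number of genes tested (horizontal axis) that were higher, lower or not called in Atr-deleted over control libraries without Bax and Bak (left) and without p53 (right), for the 10 genes and 8 pathway lists, 1 bar each. On the left the Atf4 list has 13 higher and 0 lower of 20 and the folate list 3 higher and 8 lower of 19, and on the right 1 gene, Fgf21, is called.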

How the data were processed

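RNA was extracted from whole cerebella after removal of the meninges and made into stranded libraries of mRNA, per the labels' protocols. The authors deposited estimated counts per transcript and lane, in 1 table for each background; the submitters' processing notes list kallisto 0.42.4, edgeR, mm9 and GRCm38 and give them no role. Estimated counts divide reads among similar transcripts, so the values of near-identical genes depend on how reads were divided. The labels name separate samples (for the shallow library, the number of replicate 1 with a suffix) and no litters or batches, so p-values rest on the spread between samples, part of which may be technical.

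Lanes were added, transcripts were assigned to their genes with GENCODE M21 (GRCm38; 92284 of 94080 identifiers matched, the rest held 0.779% to 1.04% of counts) and sums were rounded. Both lane columns of the shallow library were identical and were counted once. Tests were edgeR 4.0.16 in R 4.3.3 (TMM, default expression filter, robust quasi-likelihood F-test, Benjamini-Hochberg adjustment over all genes, threshold 0.05), with each background fitted by itself and a fit of all 16 libraries for the difference of Atr effects and for levels between backgrounds. SE is the log2 fold change over the root of F. CPM uses TMM-scaled library sizes of the 16 libraries, and RPKM adds each transcript's counts over its length. Transcript shares were tested by exact permutation. Motifs were searched in both strands. Tested on simulated counts with 200 changed genes of above-median expression, the fits recovered 98% of 1.5-fold changes without Bax and Bak (17196 genes), 51% without p53 (17105 genes) and 52% of the differences (17895 genes), with 9, 7 and 8 false calls.

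The 10 genes and all lists were chosen with earlier results of these data known. Named beside the 10 are, per pathway list, up to 3 genes of smallest p called in each direction (or the gene of smallest p), 1 per direction of marker lists, the deleted genes and Mki67; Slc3a2 was added for its link to Slc7a5. Of these, the text gives the pathway genes and the markers beside which a result stands. All 228 list genes matched. Alternatives were 2 other scalings, a mean of at least 1 CPM as filter or none, limma-voom (limma 3.58.1), DESeq2 1.42.0, no robust moderation, each library left out, the shallow library kept, 1 fit of 16 libraries, single number series and, chosen after seeing the data, Phgdh summed with its pseudogenes. Figures and tables used Python 3.11.15, numpy 2.4.6, pandas 2.3.3 and matplotlib 3.10.9.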

Additional observations from a re-analysis of the deposited data

Results flagged for a closer look

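Psat1 and Mthfd2 stood out because their differences between Atr-deleted and control libraries were unlike in the 2 backgrounds. The log2 fold change of Psat1 was -0.21 without Bax and Bak and 0.18 without p53, and the tested difference was -0.40 (edgeR adjusted p = 0.00089). That of Mthfd2 was -0.31 and 0.31, and the tested difference was -0.63 (edgeR adjusted p = 0.0029). Shmt2 stood out for a single library: Atr-deleted replicate 1 without Bax and Bak had 71.4 CPM, apart from the 78.2 to 80.7 CPM of the other 4 libraries of its group. It was the one such library in the 30 groups of 4 or 5 libraries examined for the 10 genes, where chance alone marks about 1 group in 20.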

How the results depend on the processing

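No paired analysis was possible because the labels' numbers do not pair samples across groups. Without Bax and Bak, 7744 of all genes were called in the main test and 6704 to 7760 with single libraries left out. Of the 10 genes, 5 were called in the main test, 4 in 1 fit of 16 libraries, and 4 to 6 with single libraries left out. With a mean of at least 1 CPM, DESeq2, limma-voom or no robust moderation 6 were called (Slc7a11 added, adjusted p = 0.028 to 0.050). Without p53, 0 were called, or 1 (Aldh1l2) with DESeq2 and in 1 fit of 16 libraries, and 0 with single libraries left out. There 8 genes in all were called, against 14 with no filter, 128 with DESeq2, 4 with limma-voom, 23 with the shallow library kept as a separate sample, 70 in 1 fit of 16, 5 in number series 1843 and 2 to 13 with single libraries left out; the causes were not tested. The 2 called differences of Atr effects were 2 to 3 with libraries left out. Between controls, 1 gene was called, 2 with upper-quartile scaling or DESeq2 and 0 to 2 with libraries left out; between Atr-deleted groups 3, or 5 with DESeq2 and 3 to 6 with libraries left out. For the difference of Atr effects and for levels between backgrounds, calls over all genes with DESeq2 or with libraries left out are not given here. Upper-quartile scaling moved higher calls between controls to 37.3% of calls, against 48.4%.

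Signs turned only for differences that were not called in the main test. Without Bax and Bak, Shmt2 was 0.050 with the 100019 controls, and with those of 1842 Aldh18a1 was -0.089, Asns -0.0058, Folr1 2.70 and Trp53 -0.095. With single libraries left out Aldh18a1 ran from -0.050 to 0.077, Asns from -0.0020 to 0.12, Bax from -0.15 to 0.031, Folr1 from -2.01 to 0.22 and Trp53 from -0.050 to 0.071. Without p53, number series 1843 alone gave -0.0032 for Psph, 0.12 for Slc7a5, -0.040 for Atr, 0.038 for Bak1, 0.025 for Gad2, 0.27 for Kcnj13, 0.014 for Mfsd2a and 1.02 for Ptgds. With libraries left out Slc7a5 ran from -0.20 to 0.097, Atr from -0.027 to 0.057, Bak1 from -0.080 to 0.035, Bax from -0.075 to 0.062 and Trp53 from -0.040 to 0.16. The difference of Atr effects for Aldh1l2 was 0.016 with upper-quartile scaling and ran from -0.079 to 0.021 with libraries left out. Between controls Aldh18a1 was -0.035 with that scaling, -0.0094 with the shallow library kept, and -0.024 to 0.058 with libraries left out, and between Atr-deleted groups Slc7a5 was -0.072 to 0.23. The share of Aldh18a1-201 was -0.048 as a log2 ratio. Left-out libraries gave -1.86 to 4.51 percentage points for it without Bax and Bak and -0.42 to 3.44 without p53, -5.17 to 1.29 and -3.69 to 0.93 for Aldh18a1-207, and -3.05 to 0.19 for Psat1-201 without p53.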
